A study of Mus musculus with 6 samples.

Results

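The Ifi200 family (also called the p200 or PYHIN family) of the mouse encodes proteins that bind DNA through a HIN domain, and most of them also carry a PYRIN domain that joins other proteins. Interferons induce many of these genes, and family members are known as sensors of DNA in the cytosol or nucleus and as regulators of transcription and cell growth. *Aim2*, the best studied of them, assembles an inflammasome on cytosolic DNA, whereas *Ifi204* is usually treated as the mouse counterpart of human IFI16, a DNA sensor that signals through STING. The genes lie side by side on chromosome 1. The members described here were chosen by name: *Ifi203*, *Ifi204*, *Ifi205*, *Ifi207*, *Ifi209*, *Ifi211*, *Ifi213*, *Mnda*, *Mndal* and *Aim2*. Of these 10 names, 9 had a row among the 29097 genes analysed. No row carried the name *Mnda*, which the RefSeq gene table gives as a synonym of *Ifi211*, so that name was read under *Ifi211* and given no value of its own.

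The libraries were made from peripheral blood (PB) neutrophils of 8-week-old male C57BL/6 wild-type mice. In the LIP group, labelled Lig, periodontitis had been induced by a silk ligature for 14 d, and the Ctrl group was not ligated. Each of the 3 libraries per group held sorted CD45+CD11b+Ly6G+ neutrophils pooled from 5 mice, so no value belongs to a single animal. RNA was copied and amplified by Smart-seq2, a full-length method that works from small amounts of RNA and attaches no molecular identifiers.

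Total counts lay between 52186555 and 57262379 per library. Neutrophil markers were abundant in all 6 libraries, but the Ctrl libraries also held much RNA of other cells. The 21 mature neutrophil genes were all higher in LIP, with a summed level of 16566 to 19875 FPKM (fragments normalized to gene length and to the library's total) in Ctrl and 56064 to 61141 FPKM in LIP. The 16 B cell genes and the 18 T cell genes were all lower in LIP, and their summed levels went from 11899-13009 to 1945-1968 FPKM and from 635-697 to 101-123 FPKM. Haemoglobin genes took 14.6 to 15.0% of the counts in Ctrl and 1.55 to 1.61% in LIP. In such bulk samples, fewer cells of a type and less RNA per cell cannot be told apart.

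All 9 members passed the filter on low values (a mean of at least 1 FPKM over the 6 libraries), as did 10440 genes in all. By edgeR's quasi-likelihood test with TMM normalization and an adjusted p under 0.05, 4 members were higher in LIP (*Ifi204*, *Ifi207*, *Ifi211* and *Ifi205*), 4 were lower (*Mndal*, *Ifi203*, *Ifi213* and *Ifi209*), and *Aim2* was not called, whereas with scaling on mature neutrophil genes none was higher and 7 were lower. Among all genes tested, 26.5% were called higher and 27.2% lower. The TMM-normalized levels of the groups did not overlap in 8 of the 9 members, beside 63.4% of all genes tested. Calls in both directions were therefore common in these libraries. The median log2 fold change over the members was 0.74, which is the value of *Aim2*, the member not called, and it was -0.09 over all genes. It is not a rise of the family, since as many members were lower as higher.

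Of the 9 members, 6 carried a DNA element in front of a start site that the choice by name did not use. The interferon-stimulated response element (ISRE) is a site bound by interferon regulatory factors. Its core was searched as GAAANNGAAA on both strands of the 250 bases before each RefSeq start site (GRCm38.p6). A window was at hand for 8 of the 9 members, *Ifi204* being the exception. The core was present in 6 of these 8 members, in all but *Aim2* and *Ifi209*, and in 2.98% of the 32851 windows of all genes. The first count takes a gene with the core in any of its windows (10 for these members), and the second counts single windows. Several members' stretches are much alike (below), so the members are not separate draws against that share. The core also stood in the windows of *Ifi206*, *Ifi208* and *Ifi214*, the other tested genes of the cluster. These matches are a description of the letters and do not show binding. The 50 bases around the core are shown for the 6 members because the core stood before genes that were higher and before genes that were lower. The core is in capitals, all are on the minus strand, and the next 3 were higher in LIP:
*Ifi207*: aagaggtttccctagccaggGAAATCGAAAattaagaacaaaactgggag
*Ifi211*: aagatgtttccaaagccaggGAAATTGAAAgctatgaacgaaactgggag
*Ifi205*: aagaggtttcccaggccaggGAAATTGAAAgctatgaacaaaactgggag
The following 3 were lower in LIP:
*Mndal*: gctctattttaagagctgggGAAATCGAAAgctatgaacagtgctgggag
*Ifi203*: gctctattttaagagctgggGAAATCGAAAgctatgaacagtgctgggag
*Ifi213*: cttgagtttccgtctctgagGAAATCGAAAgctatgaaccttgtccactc
The stretches lie at chr1:173741821-173741870 (*Ifi207*), chr1:173913054-173913103 (*Ifi211*), chr1:174031860-174031909 (*Ifi205*), chr1:173880194-173880243 (*Mndal*), chr1:173942498-173942547 (*Ifi203*) and chr1:173599316-173599365 (*Ifi213*).

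The core began 41 bases before the start of *Ifi207*, 37 before *Ifi211*, 134 before *Ifi205*, 36 before *Mndal*, 35 before *Ifi203* and 73 before *Ifi213*. Its inner pair of bases was TC in *Ifi207*, *Mndal*, *Ifi203* and *Ifi213*, and TT in *Ifi211* and *Ifi205*. The stretches of *Mndal* and *Ifi203* were identical in all 50 positions, and those of *Ifi211* and *Ifi205* in 46. *Ifi207* matched *Ifi205* at 44 positions and *Ifi211* at 42, and *Ifi213* matched *Mndal* and *Ifi203* at 29. The 9 pairs of a gene that was higher and a gene that was lower matched at 25 to 35 of the 50 positions, compared without gaps. *Mndal* had a further window, from an alternative start, with a core on the opposite strand 54 bases before it. *Ifi203* had 2 windows, and the core was in 1 of them, before an inner alternative start. Its stretch thus lies within the gene as mapped (chr1:173920407-173942672), and the window before the outer start held no core. The only window of *Aim2* (chr1:173420354-173420603) also lies within its gene as mapped, so the outer start of *Aim2* was not searched. The window of *Ifi209* held taaatcgaaa, which departs from the searched core only in its first base.
The GAS element, another sequence found before interferon-induced genes and searched as TTCNNNGAA, was in none of the members' windows and in 7.02% of all windows. A PU.1 element, searched as GAGGAAG, was in the window of *Aim2* and in 10.6% of all windows. No window of a member held more than 1 of the 3 motifs.

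**Figure D1:**
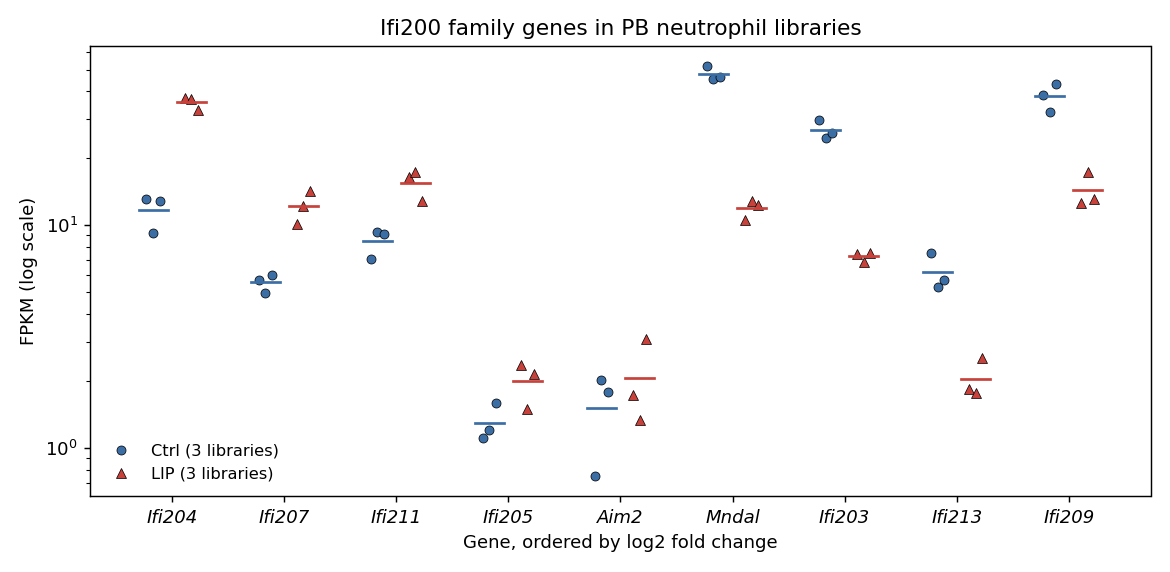
FPKM of the 9 family genes (log scale) in each library, with circles for Ctrl, triangles for LIP and bars for group means of 3 libraries. *Ifi204* sits at 32.9 to 37.1 FPKM in LIP against 9.19 to 13.2 in Ctrl, *Mndal* at 10.6 to 12.9 against 45.1 to 51.6, and the *Aim2* points of the groups overlap. FPKM is scaled on library totals, not on mature neutrophil genes.

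The DNA sensor *Ifi204* (ENSMUSG00000073489, chr1:173747293-173766943, minus strand) had the highest log2 fold change of the members. With TMM its size was also above that of the fall of *Mndal*, whereas with library totals it was 1.59 beside -2.01 for *Mndal*. Its level was 13.2, 9.19 and 12.9 FPKM in the Ctrl libraries and 37.1, 37.0 and 32.9 FPKM in the LIP libraries. Every LIP library was above every Ctrl library, and the LIP libraries lay close together. In CPM (counts normalized by TMM and scaled to library size) it went from 40.5 ± 7.17 to 153 ± 10.6 (SD, n = 3 each), a 3.77-fold difference (log2 1.91, SE 0.15, edgeR adjusted p = 3.19e-06). Of the genes tested, 2.28% had a higher log2 fold change. With scaling on mature neutrophil genes the log2 fold change of *Ifi204* was 0.01 (edgeR adjusted p = 0.949), the median of those genes being 1.86 with TMM.

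*Ifi207* (ENSMUSG00000073490, chr1:173723427-173741747, minus strand) encodes a nuclear PYHIN protein with a long repeat region between its domains. Its level was 5.71, 4.98 and 6.01 FPKM in Ctrl and 10.1, 12.2 and 14.3 FPKM in LIP. The groups did not overlap, and the LIP libraries were more spread than the Ctrl libraries. The difference was 2.71-fold, from 18.5 ± 1.60 to 50.0 ± 8.27 CPM (SD, n = 3 each; log2 1.44, SE 0.18, edgeR adjusted p = 8.03e-05). With scaling on mature neutrophil genes its log2 fold change was -0.46 and it was not called (edgeR adjusted p = 0.0552).

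*Ifi211* (ENSMUSG00000026536, chr1:173896345-173913046, minus strand), the gene that RefSeq also lists as *Mnda*, was at 7.05, 9.29 and 9.10 FPKM in Ctrl and at 16.4, 17.3 and 12.8 FPKM in LIP. The lowest LIP library, LIP 3, was still above every Ctrl library. The difference was 2.26-fold, from 14.7 ± 2.36 to 33.3 ± 5.08 CPM (SD, n = 3 each, log2 1.18, SE 0.21, edgeR adjusted p = 0.000923). With scaling on mature neutrophil genes *Ifi211* was called lower (log2 -0.71, edgeR adjusted p = 0.00902). *Ifi211* is the member whose counts are least certain: 56.9% of the 100-base stretches of its transcript also occur in transcripts of other genes, 37.2% in *Ifi205* and 19.6% in *Ifi204*, both of which were higher too. *Mndal*, which was lower, holds 6.41% of them. Of the stretches of *Ifi204*, 9.56% also occur in *Ifi211*.

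*Ifi205* (ENSMUSG00000054203, chr1:174011998-174031810, minus strand), whose protein has been linked to expression of the inflammasome adaptor ASC, was the weakest of the members called higher. Its level was 1.11, 1.21 and 1.59 FPKM in Ctrl and 2.36, 1.49 and 2.15 FPKM in LIP. On the FPKM scale the groups overlapped, because LIP 2 lay below Ctrl 3. In CPM it went from 5.29 ± 1.06 to 10.04 ± 2.31 (SD, n = 3 each; log2 0.92, SE 0.32, edgeR adjusted p = 0.0309). The call was lost (edgeR adjusted p = 0.0731 to 0.0897) without Ctrl 1, Ctrl 2, LIP 1 or LIP 3. With scaling on mature neutrophil genes *Ifi205* was called lower (log2 -0.95, edgeR adjusted p = 0.0201). Of its 100-base stretches, 15.0% are shared with *Ifi211*.

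*Aim2* (ENSMUSG00000037860, chr1:173350879-173466040, plus strand), the sensor of the AIM2 inflammasome, was at 0.751, 2.03 and 1.78 FPKM in Ctrl and at 1.72, 1.34 and 3.10 FPKM in LIP. The groups overlapped, with Ctrl 1 lowest and LIP 3 highest. The counts behind these values were 152 to 421 reads in Ctrl and 289 to 616 in LIP. The log2 difference was 0.74 (SE 0.45, 95% confidence interval -0.26 to 1.73, edgeR adjusted p = 0.190), an interval that held no change as well as a rise as large as that of *Ifi207*. It was 0.41 without Ctrl 1 and 0.32 without LIP 3. With scaling on mature neutrophil genes *Aim2* was called lower (log2 -1.12, edgeR adjusted p = 0.043). The coefficient of variation of *Aim2* within a group was 44.5% in Ctrl and 45.0% in LIP, the highest among the members.

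*Mndal* (ENSMUSG00000090272, chr1:173849126-173880187, minus strand), an MNDA-like nuclear protein linked to restraint of cell growth, was the most abundant member in Ctrl. Its level was 51.6, 45.1 and 46.4 FPKM in Ctrl and 10.6, 12.9 and 12.3 FPKM in LIP. The groups were far apart, with little spread in either. In CPM it went from 166 ± 9.31 to 51.4 ± 5.003 (SD, n = 3 each), 3.23-fold lower (log2 -1.69, SE 0.12, edgeR adjusted p = 1.79e-06). Of the genes tested, 7.94% had a lower log2 fold change.

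*Ifi203* (ENSMUSG00000039997, chr1:173920407-173942672, minus strand), a nuclear protein with several isoforms, was lower as well. Its level was 29.5, 24.6 and 26.0 FPKM in Ctrl and 7.47, 6.87 and 7.52 FPKM in LIP. The lowest Ctrl library was well above the highest LIP library. In CPM it went from 173 ± 13.8 to 58.7 ± 3.06 (SD, n = 3 each), 2.95-fold lower (log2 -1.56, SE 0.12, edgeR adjusted p = 2.12e-06).

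*Ifi209* (ENSMUSG00000043263, chr1:173630917-173647928, plus strand), also known as *Pyhin1*, was at 38.5, 32.2 and 43.0 FPKM in Ctrl and at 12.6, 17.3 and 13.1 FPKM in LIP. The groups did not overlap. In CPM it went from 130 ± 17.8 to 61.0 ± 10.8 (SD, n = 3 each), 2.14-fold lower (log2 -1.10, SE 0.16, edgeR adjusted p = 0.000211). Of its 100-base stretches, 16.9% are shared with *Ifi214*, which was lower as well.

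*Ifi213* (ENSMUSG00000073491, chr1:173566283-173599274, minus strand), also known as *Pydc4*, was the least abundant of the members called lower. Its level was 7.52, 5.29 and 5.67 FPKM in Ctrl and 1.84, 1.76 and 2.53 FPKM in LIP. The groups did not overlap, and the difference was 2.43-fold (log2 -1.28, SE 0.21, edgeR adjusted p = 0.000544). The 4 members called lower stayed called in that direction under every alternative in which they were tested, scaling on mature neutrophil genes included (log2 fold changes of -3.00 to -3.59 there).

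Because the opposite changes partly cancelled, the family's summed level differed less than its parts. It was 155, 134 and 152 FPKM in Ctrl and 100.3, 108 and 100.7 FPKM in LIP. The summed level of the members called lower went from 118 ± 10.2 to 35.6 ± 3.16 FPKM, and that of the members called higher from 27.1 ± 2.45 to 65.4 ± 2.96 FPKM (SD, n = 3 each). These sums follow from the calls and are a description, with no test. FPKM is scaled on library totals, and with library totals the median gene had a log2 fold change of -0.42.

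The makeup of the family was different in the groups, and shares within a library do not depend on the scaling between libraries. They do depend on the cells a library holds, and the cell type markers differed between the groups. The part of the cell mix in these shares was not tested. In Ctrl, *Mndal* made up 32.5 ± 1.77% of the family's FPKM, *Ifi209* 25.7 ± 2.20% and *Ifi203* 18.2 ± 1.02%. In LIP their shares were 11.6 ± 0.908%, 13.9 ± 1.86% and 7.09 ± 0.641% (SD, n = 3 each). *Ifi204* went the other way, from 7.94 ± 0.929% to 34.7 ± 2.19%. The shares of *Ifi211* (5.82 to 15.0%) and *Ifi207* (3.78 to 11.8%) also differed in this direction, and *Aim2* and *Ifi205* made up 2.01% or less in either group.

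**Figure D2:**
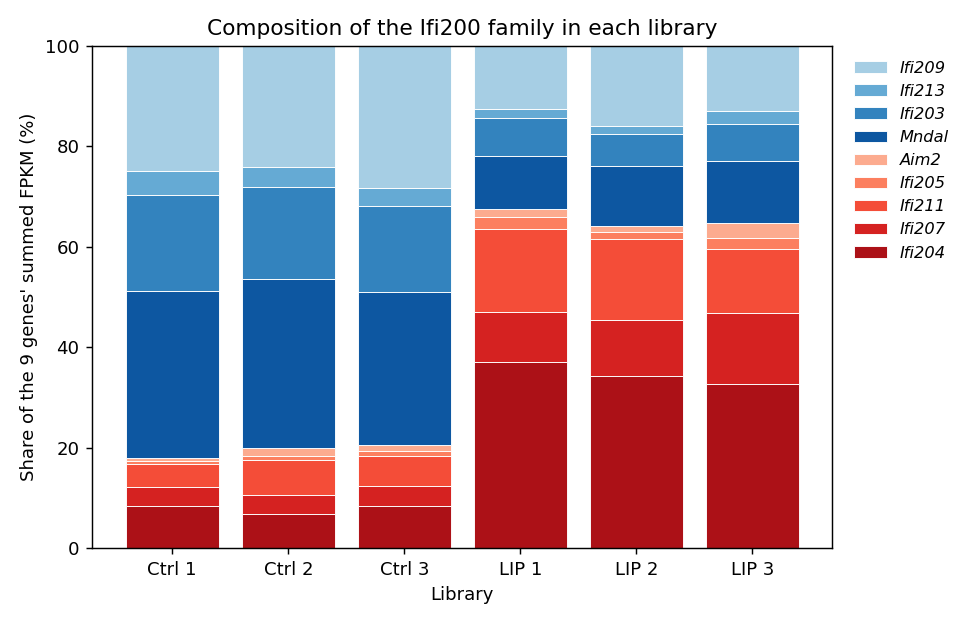
Share of each gene in the summed FPKM of the 9 family genes (%), 1 bar per library. Genes with a positive log2 fold change are in reds (*Ifi204* at the bottom) and those with a negative one in blues. *Ifi204* takes 34.7% on average in LIP and 7.94% in Ctrl, and *Mndal* 11.6% and 32.5%. The shares within a bar are the same under any scaling of the library, mature neutrophil genes included, but they depend on the cells a library holds.

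The order of the members by FPKM was *Mndal*, *Ifi209* and *Ifi203* in each of the 3 Ctrl libraries, and these neighbours did not overlap. Below them, *Ifi204* (11.7 ± 2.22 FPKM), *Ifi211* (8.48 ± 1.24), *Ifi213* (6.16 ± 1.19) and *Ifi207* (5.57 ± 0.527) each overlapped the next, and so did *Aim2* (1.52 ± 0.676) and *Ifi205* (1.30 ± 0.254). In LIP, *Ifi204* (35.7 ± 2.39 FPKM) came before all others in each library. *Ifi211* (15.5 ± 2.35), *Ifi209* (14.3 ± 2.58), *Ifi207* (12.2 ± 2.06) and *Mndal* (11.9 ± 1.22) followed and each overlapped the next (SD, n = 3 each). *Ifi203* (7.29 ± 0.364) stood clear of its neighbours, and *Aim2*, *Ifi213* and *Ifi205* overlapped at about 2 FPKM. Of the 36 pairs of members, 7 had 1 order in all Ctrl libraries and the opposite order in all LIP libraries. *Ifi204* was below *Mndal* by 2.04 ± 0.23 on the log2 FPKM scale in Ctrl and above it by 1.58 ± 0.21 in LIP, a shift of 3.62 that no scaling between libraries can move. A different mix of cells can move it, and the part of that mix was not tested.

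The map position gave no simple split between the members (GRCm38, coordinates as deposited). The cluster ran from chr1:173350879 to 174031810, 681 kb from the start of *Aim2* to the end of *Ifi205*. It held 21 listed genes at least in part, of which 12 were tested. The other 9, among them *Ifi202b* and *Ifi203-ps*, had at most 41 reads in any library. *Ifi207* and *Ifi204*, which are neighbours among the tested genes, were both higher. *Ifi213* and *Ifi209* were neighbours and both lower. *Ifi211*, which was higher, lay between *Mndal* and *Ifi203*, which were both lower.

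The 3 tested genes of the cluster that were not among the members were lower in LIP in every case, mature neutrophil scaling included. *Ifi206* was at 19.4, 10.3 and 17.7 FPKM in Ctrl and at 5.996, 6.84 and 5.56 FPKM in LIP (log2 -1.05, edgeR adjusted p = 0.00308). *Ifi214* was at 3.68, 2.90 and 2.97 FPKM in Ctrl and at 0.545, 0.778 and 0.653 FPKM in LIP (log2 -1.96, edgeR adjusted p = 6.46e-05). The groups did not overlap for either gene. *Ifi208* was at 2.24, 1.89 and 1.70 FPKM in Ctrl and at 0.223, 0.0291 and 0.122 FPKM in LIP (log2 -3.62, SE 0.60, edgeR adjusted p = 0.000544). Counting these 3, the tested genes of the cluster were 4 higher, 7 lower and 1 not called. Of all genes tested, 26.5% were called higher and 27.2% lower.

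**Figure D3:**
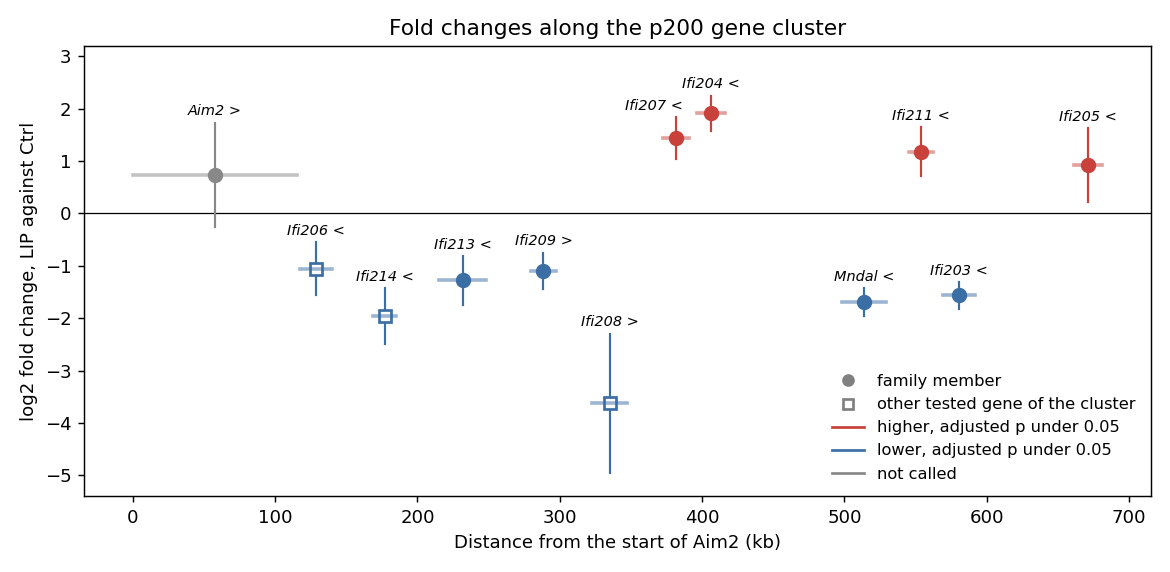
log2 fold change, LIP against Ctrl (edgeR, TMM), with its 95% confidence interval, for the 12 tested genes of the cluster against the distance from the start of *Aim2* (kb). Thick horizontal lines show the extent of each gene and the arrowheads its strand. *Ifi204* and *Ifi207* lie above 0 with starts at 396 and 373 kb, *Ifi211* (1.18) lies between *Mndal* (-1.69) and *Ifi203* (-1.56), and with scaling on mature neutrophil genes *Ifi207*, *Ifi211*, *Ifi205* and *Aim2* fall below 0.

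The scaling sets where 0 lies. With library totals the median gene of the 10440 had a log2 fold change of -0.42, with limma on log2(FPKM + 1) it was -0.31, and with scaling on mature neutrophil genes it was -1.99, beside -0.09 with TMM and -0.05 with DESeq2. Taken relative to that median, *Ifi204* stood 1.85 to 2.01 above it, *Ifi207* 1.31 to 1.54, *Ifi211* 1.11 to 1.28, *Ifi205* 0.69 to 1.03 and *Aim2* 0.58 to 0.87 under these 5 settings. *Mndal* stood at -1.61 to -1.60, *Ifi203* at -1.47 to -1.43, *Ifi213* at -1.19 to -0.92 and *Ifi209* at -1.04 to -1.0. Most of these settings fit the same counts with other factors per library, which the subtraction of the median largely removes. That all 9 members kept their side of the median gene therefore mostly follows from the arithmetic and is no separate check. *Ifi207*, *Ifi211*, *Ifi205* and *Aim2* changed their side of 0 with scaling on mature neutrophil genes.

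**Figure D4:**
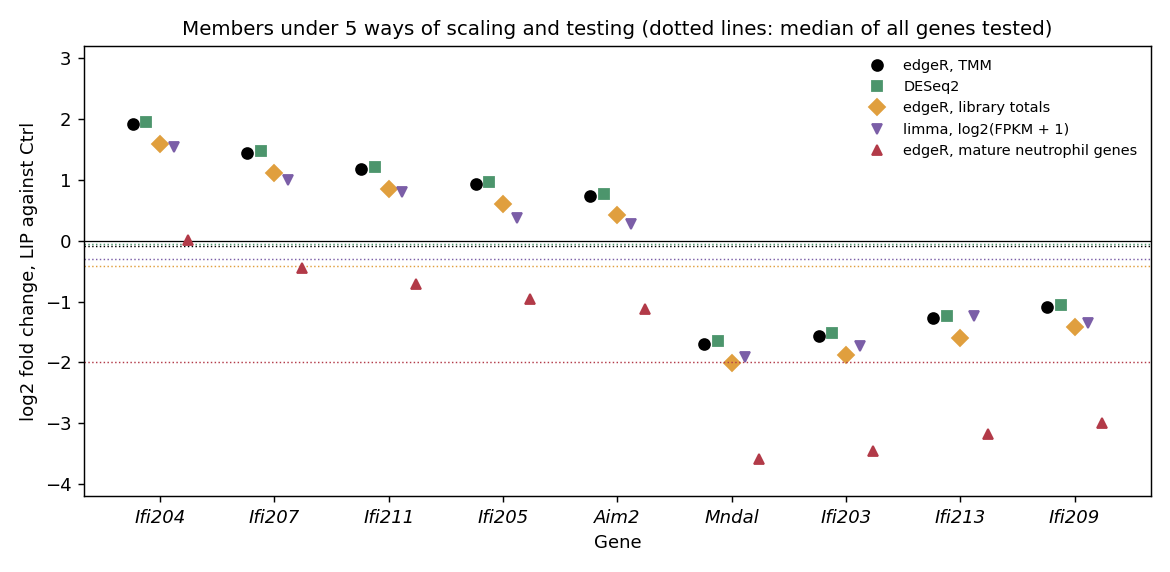
log2 fold change, LIP against Ctrl, of the 9 members under 5 ways of scaling and testing, with dotted lines at the median of all 10440 genes tested under each. Under scaling on mature neutrophil genes (red triangles) *Ifi204* lies at 0.01 and the other members below 0. The members keep their TMM order there, since a change of scaling factors moves all members by about the same amount. With limma on log2(FPKM + 1) the order differs, with *Ifi209* (-1.35) below *Ifi213* (-1.23).

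The cell type markers moved with these groups of members. The log2 fold changes of the members called lower were -1.10 to -1.69. Those of the B cell list were -2.89 to -2.15 (median -2.55; *Cd74* -2.27 and *Ighm* -2.15) and those of the T cell list -3.38 to -1.32 (median -2.37; *Trbc2* -2.50 and *Trbc1* -2.08). *Mndal* (-1.69) and *Ifi203* (-1.56) lay within the T cell range, and *Ifi213* (-1.28) and *Ifi209* (-1.10) lay above it. All of these members lay above the B cell range. Such ranges do not show which cells the RNA came from. No gene of either list was at 0 in all libraries. The erythroid list was lower in 11 of 11 tested genes (median -2.92; *Hba-a1* -2.80 and *Hba-a2* -2.89). The part of these cells in the members' differences was not tested. The 3 genes whose TMM-normalized levels followed *Mndal* most closely over the 6 libraries were the long non-coding *Gm30211* (r = 0.999), *Lef1* (r = 0.998), a transcription factor of T cells and early B cells, and *Igkv6-13* (r = 0.998), an immunoglobulin light chain segment. Their log2 fold changes were -3.18, -2.80 and -3.17, beside -1.69 for *Mndal*, and r does not measure the size of a change. Of the 5327 genes compared, 95 had r over 0.99. This is a description, and the 6 points share the contrast between the groups.

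The members called higher rose by 0.92 to 1.91. The mature neutrophil list was higher in 21 of 21 genes (median 1.86; *S100a9* 2.03 and *S100a8* 1.95), the platelet list in 11 of 11 (median 1.24; *Ppbp* 1.23 and *Pf4* 1.21) and the monocyte and macrophage list in 14 of 18, with 1 lower (median 0.85; *Ctss* 0.16, not called, and *Nr4a1* 0.57). The summed level of the monocyte and macrophage genes was 938 to 975 FPKM in Ctrl and 1067 to 1137 FPKM in LIP. NK cell genes were called higher in 4 of 12 (median 0.30), but in 1 without LIP 2, in 2 without Ctrl 1 or Ctrl 3, and in 0 with library totals or limma, which gave 1 lower. With TMM, dendritic cell genes were called higher in 4 and lower in 2 of 7, and eosinophil and basophil genes higher in 2 and lower in 1 of 7. With scaling on mature neutrophil genes the platelet list was higher in 0 and lower in 10, and the monocyte and macrophage list higher in 0 and lower in 16. Their part in the result was not tested either.

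*Aim2* acts with the adaptor ASC (*Pycard*) and caspase-1, which activates IL-1β and the pore protein gasdermin D. The list read here was wider than this inflammasome and also held *Nlrp3* and *Nek7*, of another inflammasome, and *Card9*. Of its 13 tested genes, 9 were higher and none lower with TMM, beside 26.5% and 27.2% of all genes tested. With scaling on mature neutrophil genes, 0 were higher and 10 lower. *Il1b*, the cytokine gene, was at 1859 ± 121 FPKM in Ctrl and 5614 ± 337 FPKM in LIP (SD, n = 3 each; log2 1.9). *Casp4*, which senses cytosolic lipopolysaccharide (log2 1.80), and *Card9*, an adaptor of immune receptors (log2 1.64), were the next highest. *Casp1* (0.52) and *Gsdmd* (0.64) were called higher by a smaller difference. *Pycard* was not called (log2 0.17, SE 0.20, edgeR adjusted p = 0.489). Besides *Aim2*, 3 tested genes carry the deposited Gene Ontology term for the AIM2 inflammasome complex, of which 2 were higher and 0 lower.

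*Ifi204* signals to the cGAS-STING pathway, and the list read for it also held RNA sensors (*Ifih1* and *Ddx58*) and other genes. Of its 16 tested genes, 6 were higher and 5 lower with TMM, beside 26.5% and 27.2% of all genes tested. With scaling on mature neutrophil genes, 0 were higher and 15 lower. *Ifih1*, an RNA sensor (log2 1.33), *Trex1*, a DNA exonuclease that limits sensing (1.05), and *Tollip*, a regulator of Toll-like receptor signalling (0.99), were the 3 highest. *Rnaseh2a*, a subunit of RNase H2 (-1.58), *Ikbke*, a kinase related to TBK1 (-1.47), and *Dnase2a*, a lysosomal DNase (-1.19), were the 3 lowest. *Sting1* itself was called lower (-0.59), and *Tbk1* (0.38) and *Irf3* (-0.39) were not called. *Cgas*, at a mean of 0.874 FPKM, was not tested.

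Of the 17 genes of interferon signalling, 11 were higher and 2 lower with TMM, beside 26.5% and 27.2% of all genes tested. With library totals 7 were higher, and with scaling on mature neutrophil genes 0 were higher and 16 lower. *Socs3*, a feedback inhibitor of cytokine receptors (log2 1.82), *Irf7*, a factor that drives interferon genes (1.16), and *Usp18*, an inhibitor of the type I receptor (1.14), were the highest. *Irf8*, a factor of monocyte, dendritic and B cells (-1.15), and *Socs1*, another feedback inhibitor (-0.55), were those called lower.

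All 9 members carry the deposited Gene Ontology term for the cellular response to interferon-beta. Outside the cluster, 24 tested genes carry the term, of which 10 (41.7%) were higher and 5 (20.8%) lower (median log2 0.25), beside 26.5% and 27.2% of all genes tested. *Gbp2* (1.65), *Ifit1* (1.42) and *Ifit3* (1.35) were higher, and *Tgtp1* (-1.78) and *Tgtp2* (-1.45), GTPases induced by interferons, were lower. Those 5 were named after their values were seen. For activation of innate immune response, another term shared by all 9, 3 of 18 genes outside the cluster were higher and 7 lower (median -0.51).

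p200 proteins are known to bind regulators of the cell cycle and of differentiation. Of 14 tested genes for such partners, 5 were higher and 4 lower with TMM, beside 26.5% and 27.2% of all genes tested. With scaling on mature neutrophil genes, 0 were higher and 12 lower. *Id1*, an inhibitor of differentiation factors (log2 2.22), *Fos* (1.44) and *Runx2* (1.16) were the highest. *Myc*, a driver of growth (-2.48), *Trp53*, the tumour suppressor p53 (-1.31), and *Id3* (-1.02) were the lowest.

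**Figure D5:**
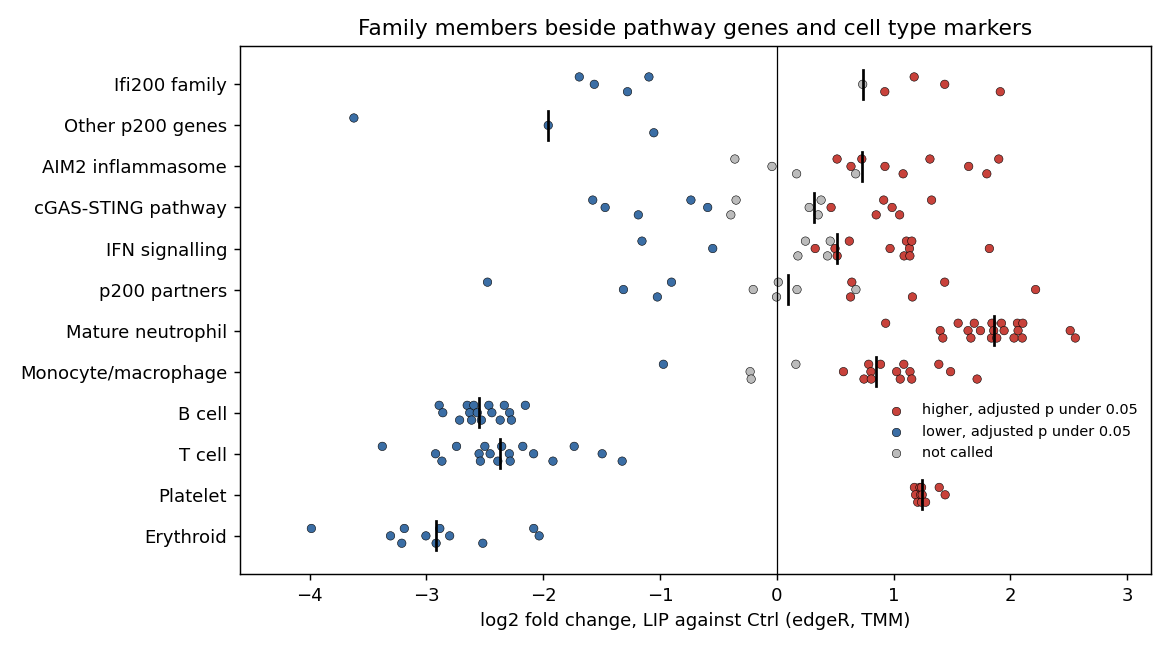
log2 fold change, LIP against Ctrl (edgeR, TMM), of each tested gene in the family, in 5 further gene lists and in 6 cell type marker lists, with a vertical bar at each median. The family members spread from -1.69 (*Mndal*) to 1.91 (*Ifi204*), whereas the B cell, T cell and erythroid genes lie below 0 and the mature neutrophil and platelet genes above it. With scaling on mature neutrophil genes the points move down, and the median of all genes tested lies at -1.99 in place of -0.09.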

How the data were processed

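The authors deposited 1 table with raw read counts per gene, not normalized, and FPKM values, computed from the counts by gene length and library total, for 3 Ctrl and 3 LIP libraries of PB neutrophils. The submitters' processing notes name cutadapt 1.9, FastQC and GRCm38. The aligner, the counting tool and the use of strand are not given in the sources used here. Groups and their numbering follow the labels. Each library is a pool of 5 mice, and whether pools were handled separately is not stated beyond that, so p-values measure the spread between these pools.

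The members and gene lists were chosen with earlier results of these data known. Where a gene name had several rows (50 names), the row with the highest mean FPKM was used. Genes under a mean of 1 FPKM were left out, the counts of the rest went into edgeR 4.0.16 in R 4.3.3 (quasi-likelihood test, TMM, no replicate block), and p-values were adjusted over all 10440 genes by the Benjamini-Hochberg method. The SE is the absolute log2 fold change over the root of F. Levels are compared between genes in FPKM, and group means of members in CPM. Sums over genes, *Il1b* and the other genes of the cluster are also given per group in FPKM, which is scaled on library totals. Total counts of 52186555 to 57262379 leave little counting error beside the spread between libraries (common biological coefficient of variation 0.265), and PCR copies without identifiers are not independent. The chi-square per gene between libraries of the same group ran from 51.9 to 126, and none was a copy of another. Exact permutation of 3 against 3 cannot go below p = 0.1 and was not used. Promoter sequences are from RefSeq, and the transcript stretches of 100 bases were compared between GENCODE transcripts.

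Alternatives were DESeq2 1.42.0, limma 3.58.1 on log2(FPKM + 1) and log2(FPKM + 0.1), other scalings and filters, the replicate block and each library left out in turn. Library totals without haemoglobin genes were added after seeing the data. Named were all members, the other tested genes of the cluster, the 3 highest and 3 lowest called genes of each pathway list, the 3 genes closest to the most abundant member, and the 2 most abundant genes of each marker list that moved. Pathway genes outside this rule (*Casp1*, *Gsdmd*, *Pycard*, *Sting1*, *Tbk1*, *Irf3* and *Cgas*) were named for their place beside *Aim2* or STING after their values were seen. *Nlrp3*, *Nek7* and *Ddx58* were named only to show what the lists hold.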

Additional observations from a re-analysis of the deposited data

How the results depend on the processing

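Over 16 or 17 alternatives, *Mndal*, *Ifi203*, *Ifi209* and *Ifi213* kept their direction and their calls, and *Ifi204*, *Ifi207* and *Ifi211* kept theirs under all but scaling on mature neutrophil genes. That scaling, which sets the reference genes to no change and moves the median of all genes to -1.99, left 0 members higher and 7 lower, 40 genes of all higher and 9380 lower. It turned *Ifi207* to -0.455, *Ifi211* to -0.714, *Ifi205* to -0.955 and *Aim2* to -1.12 on the log2 scale, and all of these but *Ifi207* were called lower. It gave 0 higher and 10 lower for the inflammasome list and 0 and 15 for the cGAS-STING list. Interferon signalling had 0 and 16 and the p200 partners 0 and 12. Library totals and both limma fits gave 1 lower inflammasome gene and 7 higher interferon signalling genes, with 1919 to 2010 genes higher and 4144 to 4249 lower over all, where TMM gave 2766 and 2835. A mean FPKM of at least 5 left 1 lower p200 gene outside the members and gave 1 lower inflammasome gene, with 1768 and 1869 of 5328 genes, and no filter gave 2430 and 2184 of 29097. Library totals without haemoglobin genes, added after seeing the data, gave 5 higher and 2 lower inflammasome genes, 3 higher cGAS-STING genes, 7 higher interferon signalling genes and 3 higher and 7 lower partners, with 1458 and 5115 genes over all. Leaving out 1 library gave 3 to 4 members higher and 4 to 4 lower. It gave 0 to 1 lower inflammasome genes (1 without Ctrl 2) and 1 to 2 lower interferon signalling genes (1 without LIP 2).

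The call for *Ifi205* as higher was lost in 10 of 16 alternatives (adjusted p of 0.0506 to 0.295). Among these were library totals (0.123) and no filter (0.0702). In 1 more, scaling on mature neutrophil genes, it turned to a call as lower (edgeR adjusted p = 0.0201). The call as higher held with DESeq2 (0.0104). With the replicate block 3 members were higher and 4 lower, since *Ifi205* missed the threshold (adjusted p = 0.0506), and it changed no other call of a member. Correlations of the deviations from the group means were small and do not settle whether the numbers pair the libraries. Same-numbered libraries were at 0.0212, 0.0562 and 0.0364. Of the other pairs, Ctrl 1 and LIP 3 were at 0.0217, and the rest lay between -0.0504 and -0.00194. With the block, 2724 genes were higher and 2822 lower. *Aim2* rested on 152 to 616 reads a library and varied by 44.5% (coefficient of variation) within Ctrl. Shared sequence limits *Ifi211*, whose reads cannot be assigned with certainty.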

Other observations

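*Ifi202b*, a HIN gene known for its low expression in C57BL/6 mice, had 9 reads at most in any library, and the pseudogene *Ifi203-ps* had 24 at most. Of the 100-base stretches of *Ifi203*, 1.7% also occur in *Ifi203-ps*. The microRNA genes *Gm44339* and *Gm44481*, which lie inside *Ifi209* and *Ifi214* on the opposite strand, and *Cadm3*, which overlaps *Aim2* on the opposite strand, were not tested for their low values.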
